A study of Bos taurus with 4 samples.

Results

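U1 is the small nuclear RNA that opens the assembly of the spliceosome: its 5′ end pairs with the 5′ splice site of a pre-mRNA, and its stem-loops and the Sm site near its 3′ end carry the proteins of the U1 particle. Mammalian genomes hold true U1 genes together with many divergent copies, and annotation by the Rfam model of U1 lists all of them. The members here were all names of the deposited annotation that belong to the Rfam family of U1, 62 Ensembl gene identifiers of 38611 names in all. A read that carried several names was divided equally among them. Between them the U1 names held 1231 distinct sequences, of which 492 had a name to themselves.

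The libraries were of small RNA from bovine oocytes at the germinal vesicle (GV) stage, in which meiosis is arrested in prophase. They formed 2 groups of 2: input RNA with no antibody, and RNA recovered with an anti-Tdrkh antibody from Proteintech (TDRKH IP). TDRKH, which carries a tudor domain, is a partner of the PIWI proteins that carry piRNAs. Most piRNAs begin with U, which reads show as T. No IP with a control antibody was analysed here, so RNA held by TDRKH and background of the IP cannot be told apart, and every change below is one of share.

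Listed reads, all of 18 to 36 nt and all with a name, numbered 1079364 and 1354003 in the inputs and 11138905 and 11060320 in the IPs. Of the listed input reads 88.3% ± 0.668 (SD, n = 2) were named for piRNA clusters, and the 4 oocyte-abundant microRNAs checked summed to 5292 and 5743 RPM (reads per 1e6 listed reads), against 59.1 and 82.6 RPM in the IPs. Marker microRNAs of cumulus and granulosa cells summed to 236 and 283 RPM in the inputs and to 1.26 and 2.71 RPM in the IPs. Those of leukocytes were at 49.5 to 55.1 RPM in the inputs, of liver at 335 to 435 RPM and of muscle and stroma at 71.6 to 87.1 RPM, all 3 under 4 RPM in the IPs, and both erythroid markers had no reads. The part of other cells in the input values of U1 was not tested. Whether the replicates were separate collections of oocytes is not in the labels. The p-values therefore speak of the spread among these 4 libraries only, and that spread may be technical.

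The U1 reads were of 2 kinds, and their sequences show the difference. Sequences with at least 10 names overlapped into a single run of 165 bases, given here because the positions below refer to it. Its capitals mark the U1 sequence with the most reads in the input, the 3′ terminal fragment from position 147 to 164.
Assembled U1: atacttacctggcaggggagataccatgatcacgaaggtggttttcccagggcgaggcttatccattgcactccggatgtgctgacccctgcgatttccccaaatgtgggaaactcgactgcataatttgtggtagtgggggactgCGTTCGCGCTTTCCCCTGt
The other leading U1 sequences of the input that lay on this run are shown because they stand for other stretches of it; a capital marks a first T.
U1 from 131 to 148: Tggtagtgggggactgcg
U1 from 81 to 104: gctgacccctgcgatttccccaaa
U1 from 5 to 33: Ttacctggcaggggagataccatgatcac
The second kind came from a copy named ENSBTAG00000036959.1 alone. Its leading sequences are shown because none resembles the run above; capitals mark the first T and the 3 positions at which its reads varied.
24 nt: TacatcatgagaaaCGctggGctg
25 nt: TacatcatgagaaaCGctggGctgg
26 nt: TacatcatgagaaaCGctggGctgga
25 nt with the other base: TacatcatgagaaaCGctggActgg
26 nt with the other base: TacatcatgagaaaCGctggActgga

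Of the 431 distinct sequences named for ENSBTAG00000036959.1 alone, 0 aligned to the assembled U1 with at most 2 edits. Of the 800 other U1 sequences 769 did, and these held 98.8% and 99.3% of the other U1 reads in the inputs and 93.8% and 97.2% in the IPs. The copy also shared 90 sequences with further U1 names, of which 87 aligned between positions 83 and 158 of the assembled U1. The name thus held reads that align to U1 and reads that do not. Before division among names, the aligned reads of the shared sequences were 64 in each input and 15 and 29 in the IPs. Reads named for the copy alone were 102 and 151 in the inputs and 1575 and 1402 in the IPs. The data therefore go against the label for this copy: the reads it holds are called by its identifier below and not counted as U1 RNA when the rest is described.

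Reads of U1 as a whole, those of ENSBTAG00000036959.1 included, were lower in the TDRKH IP. They made up 617 and 673 RPM in the inputs and 168 and 158 RPM in the IPs, and the groups did not overlap. With the names of each Rfam family merged and listed reads as library size, the log2 change was -1.99 ± 0.07 (SE, adjusted p = 1.92e-07, edgeR's quasi-likelihood test), and 58.0% of all 5252 features tested in this way were lower at an adjusted p under 0.05. The direction depended on the scaling, since the change turned to 0.11 with DESeq2's size factors (adjusted p = 0.462) and to 2.78 when library size was the sum of microRNA reads (adjusted p = 1.92e-33). These scalings moved the median over all features tested in this way from -2.41 to -0.35 and 2.27. TMM factors moved it to -1.10 and gave U1 a change of -0.66 (adjusted p = 2.61e-05, edgeR's quasi-likelihood test). Under each of these scalings U1 as a whole lay above the median, a difference that was not tested. Without the reads named for ENSBTAG00000036959.1 alone, U1 changed by -4.23 with listed reads as library size. That sum was not run under the other scalings.

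Single copies departed from the sum in both directions. Of the 62 names 28 had enough reads to be tested. Of these 27 fell and 1, ENSBTAG00000036959.1, rose, where 58.3% of all 5414 names tested fell and 16.5% rose. The 27 passed the filter on low counts through the inputs, as in the IPs they reached at most 1.61 RPM. The filter thus favoured names that fell, and the number of 27 does not by itself show a fall of U1. The median log2 change of the 28 was -4.10, against -2.44 over all names tested. TMM factors also gave 27 lower and 1 higher, with a median of -2.77 against -1.12 over all names tested. DESeq2's size factors gave 23 lower and 1 higher, with a median of -1.98 against -0.33. With total microRNA reads as library size, however, 0 were lower and 2 higher, with a median of 0.62 against 2.24. The share of all names called under these other scalings was not counted, so these counts have no reference. The other 34 names were all below 3.96 RPM in the mean of the inputs and below 0.37 RPM in the mean of the IPs. In all 34 the IP mean was the lower of the pair, but how many of all names not tested did so was not counted. Their direction is thus not a result about U1.

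**Figure D1:**
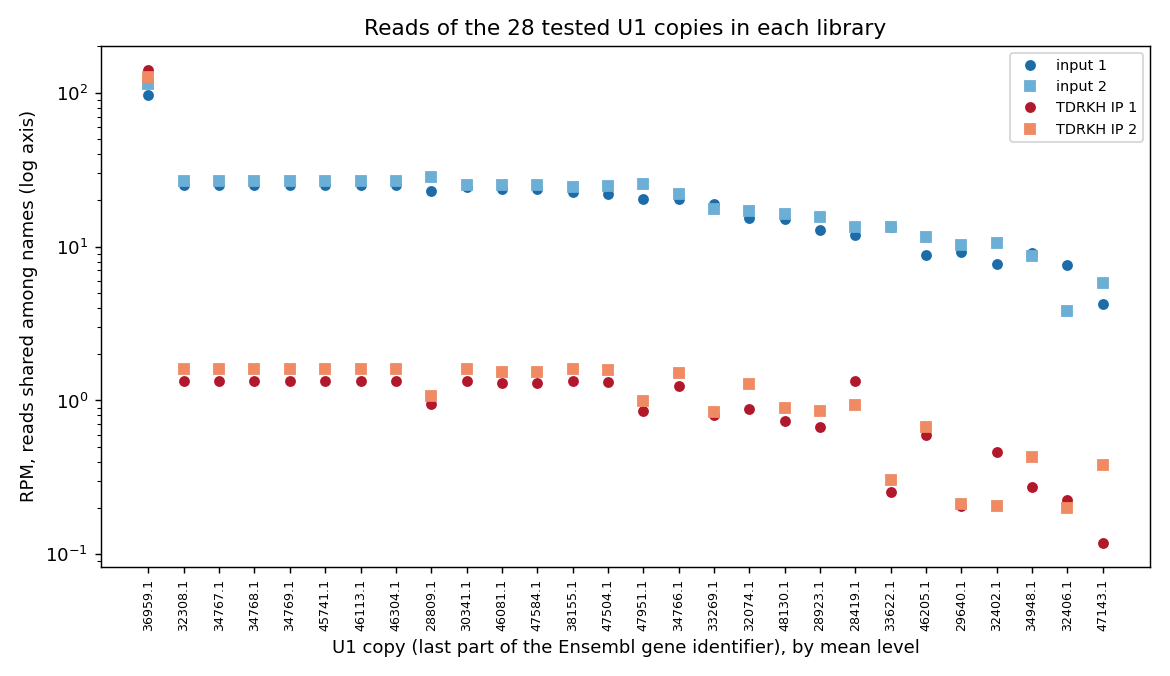
Reads per 1e6 listed reads (RPM) (log axis) of each of the 28 U1 copies tested, in the 4 libraries (circles, replicate 1; squares, replicate 2), ordered by mean level. ENSBTAG00000036959.1, at the left, lies between 97.0 and 141 RPM in all 4 libraries, while the 27 other copies reach at most 28.2 RPM in the inputs and 1.61 RPM in the IPs.

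The 27 copies that fell share many of their reads, though not all to the same extent. Over single input libraries their share of reads beginning with T ran from 13.5% to 72.8% and their mean length from 21.8 to 28.3 nt. These ends came from copies with few reads, whose inputs differed. ENSBTAG00000032406.1 had 27.2% in input 1 and 72.8% in input 2, and ENSBTAG00000032402.1 had 23.1 and 28.3 nt. The number of distinct sequences ran from 71 to 689. A U1 sequence outside the reads of ENSBTAG00000036959.1 alone carried a median of 20 names, and up to 31. The 62 names had 55 distinct sets of sequences, and 7 copies had exactly the same set of 689 sequences, among them ENSBTAG00000032308.1, ENSBTAG00000034767.1 and ENSBTAG00000034768.1. Each of these 7 was at 25.1 and 26.8 RPM in the inputs and at 1.34 and 1.61 RPM in the IPs, a log2 change of -4.10 ± 0.30 (adjusted p = 2.11e-05, edgeR's quasi-likelihood test). These names are not independent measurements, and the count of 27 is not a count of 27 genes.

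Over those 27 copies the log2 change ran from -3.47 to -5.62, with adjusted p between 1.70e-05 and 0.000887 (edgeR's quasi-likelihood test). In all 27 both IPs lay below both inputs, which the filter on low counts favoured. How many of all names tested did so was not counted, so this is not a result about U1. At the lower end of the change stood ENSBTAG00000029640.1, at 9.22 and 10.2 RPM in the inputs and 0.207 and 0.212 RPM in the IPs. At the upper end stood ENSBTAG00000028419.1, at 11.9 and 13.5 RPM in the inputs and 1.33 and 0.928 RPM in the IPs. This copy had 8 reads of its own in TDRKH IP 1 and 1 in TDRKH IP 2 against 0 in each input. ENSBTAG00000032074.1, ENSBTAG00000034948.1, ENSBTAG00000032402.1 and ENSBTAG00000047143.1 also had IP reads of their own, up to 3 in a library. In the inputs, which had far fewer listed reads, these copies had 2 and 4, 1 and 1, 0 and 9, and 0 and 1 such reads, in the same order. In ENSBTAG00000028419.1 the share of reads beginning with T was 35.1% and 39.5% in the inputs and 81.1% and 51.6% in the IPs. Some other copies showed a like shift, such as ENSBTAG00000046205.1 with 41.6% and 38.9% in the inputs and 75.4% and 62.4% in the IPs. Others did not. ENSBTAG00000033269.1 went down, from 34.2% and 32.5% in the inputs to 19.5% and 11.6% in the IPs. The 7 copies of the identical set had 30.8% and 31.2% in the inputs and 40.0% and 29.8% in the IPs. At such counts no difference between copies was tested.

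ENSBTAG00000036959.1 held 521 distinct sequences and was the U1 name with the most reads. It was at 97.0 and 114 RPM in the inputs and at 141 and 127 RPM in the IPs, so both IPs were above both inputs by a small margin. The log2 change was 0.34 ± 0.11 (SE, adjusted p = 0.0247, edgeR's quasi-likelihood test). Its size depended on the scaling, with 0.20 for piRNA cluster reads as library size, 1.67 for TMM factors, 2.49 for DESeq2's size factors and 5.11 for total microRNA reads. The call did not hold without input 1 (adjusted p = 0.297), without input 2 (0.136), without TDRKH IP 1 (0.133), with no filter on low counts (0.280) or with piRNA cluster reads as library size (0.139), and adjusted p ran from 7.83e-83 to 0.297 over all alternatives; the change was positive under each of them.

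The makeup of the U1 reads differed between the groups, as the reads of this copy changed little per listed read and the others fell. Sequences named for it alone gave 102 of the U1 reads in input 1, 151 in input 2, 1575 in TDRKH IP 1 and 1402 in TDRKH IP 2. That was 15.3% and 16.6% of U1 reads in the inputs and 84.1% and 80.2% in the IPs. All other U1 reads went from 522 and 562 RPM to 26.8 and 31.2 RPM, a mean 18.7-fold lower. The split was made after the values were seen and has no test, and this and the other ratios below hold for listed reads as library size.

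The position along U1 was compared for those other reads. In the inputs reads began in every part of the molecule, with 92.2 ± 8.53 RPM (SD, n = 2) starting at positions 1 to 33, 60.2 ± 2.60 at 34 to 66, 121 ± 19.6 at 67 to 99, 157 ± 1.22 at 100 to 132 and 107 ± 0.406 at 133 to 165. In the IPs the same windows held 0.812 ± 0.386, 5.90 ± 0.544, 8.25 ± 2.78, 3.15 ± 0.398 and 9.64 ± 0.682 RPM. The 5′ window, which holds the bases that pair with the splice site, was a mean 114-fold lower in the IP, and the window at 100 to 132 49.7-fold lower. The windows at 34 to 66, 67 to 99 and 133 to 165 were 10.2-, 14.7- and 11.1-fold lower. These ratios are descriptions of windows chosen after the reads were seen, and no difference between windows was tested.

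**Figure D2:**
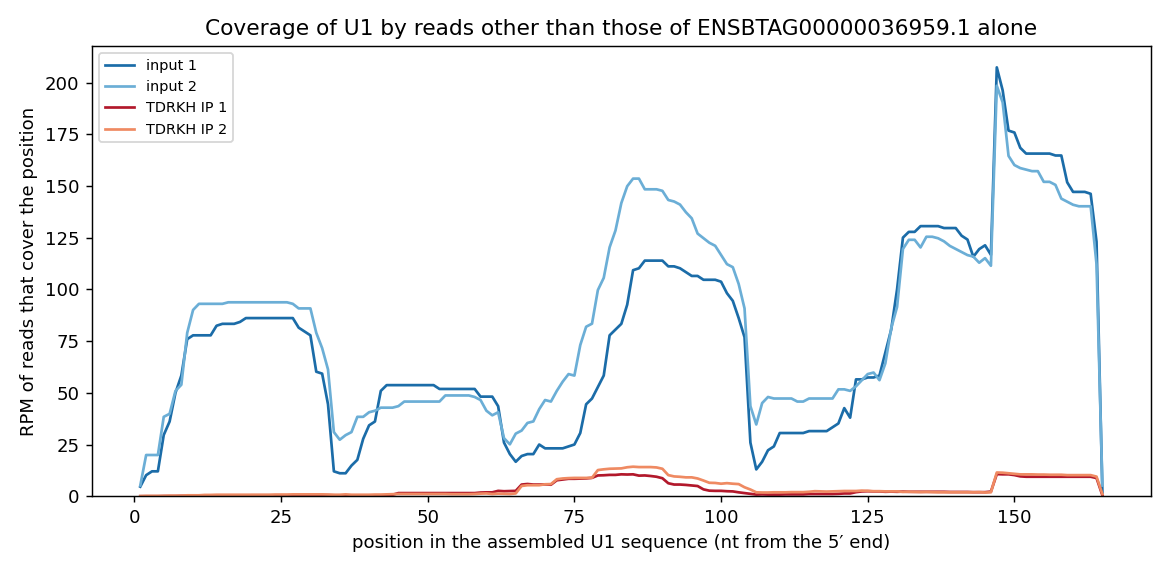
Reads per 1e6 listed reads (RPM) that cover each position of the assembled U1 (165 nt from its 5′ end), in each of the 4 libraries, without reads named for ENSBTAG00000036959.1 alone. The inputs reach 207 and 199 RPM at position 147, where the 3′ terminal fragment begins, and the IPs stay below 15 RPM at every position.

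The 3′ terminal fragment, 18 nt long and shared by 15 names, was the leading U1 sequence of both inputs. It had 54 and 77 reads in the inputs and 79 and 88 in the IPs, or 50.03 and 56.9 RPM and 7.09 and 7.96 RPM. It was the only U1 sequence with at least 10 RPM in 2 libraries. It reached that minimum in the inputs alone, which favoured a fall. It fell, with a log2 change of -2.83 ± 0.33 (adjusted p = 1.09e-08, edgeR's quasi-likelihood test over 11786 sequences, of which 19.9% fell and 41.9% rose). The same test called it higher instead when library size was the sum of microRNA reads. All reads with this 5′ end together were a mean 10.03-fold lower in the IP, and all other starts on the assembled U1 23.9-fold lower. The fragment led the reads of 15 of the 27 copies that fell, in both inputs and in both IPs.

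The other leading fragments nearly vanished from the IP, but they were chosen for their reads in the input, which favours lower values in the IP. The fragment from position 131 to 148 had 9 and 17 reads in the inputs and 0 in both IPs, which puts it at least 77.3-fold lower, with 3 counts over both IPs (0.135 RPM) as the floor. The fragment from 81 to 104 had 12 and 9 reads in the inputs and 2 and 1 in the IPs. That from 5 to 33, in the 5′ region, had 7 and 13 reads in the inputs and 1 and 0 in the IPs, where the U1 reads other than those of ENSBTAG00000036959.1 alone came to 564 and 761 in the inputs and 298 and 345 in the IPs.

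With edgeR's filterByExpr in place of the minimum of 10 RPM, 24 U1 sequences could be tested among 63296, of which 16.2% fell and 17.8% rose. With listed reads as library size all 10 of these that were not named for ENSBTAG00000036959.1 alone fell, with log2 changes from -2.05 to -9.04. Of the 14 named for that copy alone, 0 fell and 1 rose, with a median of 0.40, and 1 of the 14 had an unadjusted p under 0.05. Of the 10, the fragments from 131 to 148, from 81 to 104 and from 5 to 33 had at most 2 reads in an IP. They passed the filter through the inputs, which favoured a fall. The sequence that rose had 1 and 4 reads in the inputs and passed it through the IPs, which favoured a rise.

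The leading sequences of ENSBTAG00000036959.1 overlapped one another. The form of 24 nt had 11 and 12 reads in the inputs and 106 in each IP, or 10.2 and 8.86 RPM and 9.52 and 9.58 RPM (log2 change 0.01 ± 0.47, adjusted p = 0.989, edgeR's quasi-likelihood test). The form of 25 nt had 1 and 15 reads in the inputs, which is 0.926 and 11.1 RPM, and 102 and 95 in the IPs, which is 9.16 and 8.59 RPM. The inputs of this form lay on either side of the IPs. The form of 26 nt was the sequence that rose, from 1 and 4 reads (0.926 and 2.95 RPM) to 97 and 69 reads (8.71 and 6.24 RPM). Its log2 change was 1.86 ± 0.72 (adjusted p = 0.0351, edgeR's quasi-likelihood test). This form was chosen as a leading sequence of the IPs and passed the filter on low counts through them, which favoured a rise.

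Those forms share their 5′ end and differ at the 3′ end. Of the 431 sequences named for this copy alone 121 began with the same 11 bases, tacatcatgag, and they made up 56.9% and 78.8% of the reads named for this copy alone in the inputs and 73.7% and 70.5% in the IPs. No other U1 name had a read with this start. Reads of piRNA clusters did: 49 and 85 in the inputs and 987 and 996 in the IPs began with it under 198 cluster names. In RPM the cluster reads with this start were at 45.4 and 62.8 in the inputs and 88.6 and 90.1 in the IPs, and the reads of the copy at 53.7 and 87.9 and at 104 and 89.4. The cluster reads were fewer than those of the copy in 3 libraries and slightly more in TDRKH IP 2. No sequence of the files carries a piRNA cluster name together with a name of another class, so whether the reads of this copy also match a cluster cannot be read from the annotation.

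Among reads of the copy with this start, 3 positions varied by more than 5%. Counted from 1 at the 5′ end of the read, and with the most frequent base first, C15T was carried by 12.1% and 7.56% of reads in the inputs and 13.7% and 10.2% in the IPs. G16A was at 24.1% and 13.4% in the inputs and 18.5% and 17.1% in the IPs. G21A was at 21.4% and 24.8% in the inputs and 23.5% and 22.7% in the IPs. The lowest and the highest share of each came from input 1 or input 2 except for the highest of C15T, and the inputs had only 56 to 119 reads at these positions. U1 names carry no mismatch note in the files, so reads that match this copy exactly and reads that match it inexactly were not told apart.

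Read length separated the copy from the other U1 reads. Reads named for it alone had a mean length of 24.2 and 24.6 nt in the inputs and 24.6 and 24.4 nt in the IPs. Those of 24 to 26 nt made up 73.5% and 88.7% in the inputs and 81.4% and 79.0% in the IPs, and 0 in either input and under 0.3% in the IPs were longer than 27 nt. The mean over all piRNA cluster reads was 25.2 nt in both inputs and 25.1 and 25.01 nt in the IPs. The other U1 reads of the inputs had no such band, with 23.4% and 20.6% of 18 nt, 17.4% and 13.7% of 24 to 26 nt, and 29.3% and 34.96% longer than 27 nt. In the IPs 30.7% and 30.4% of these other reads were of 18 nt, 36.5% and 37.9% of 24 to 26 nt and 6.70% and 8.11% longer than 27 nt. Thus the few other U1 reads left in the IPs had a larger share of 24 to 26 nt and a smaller share of long reads than in the inputs.

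**Figure D3:**
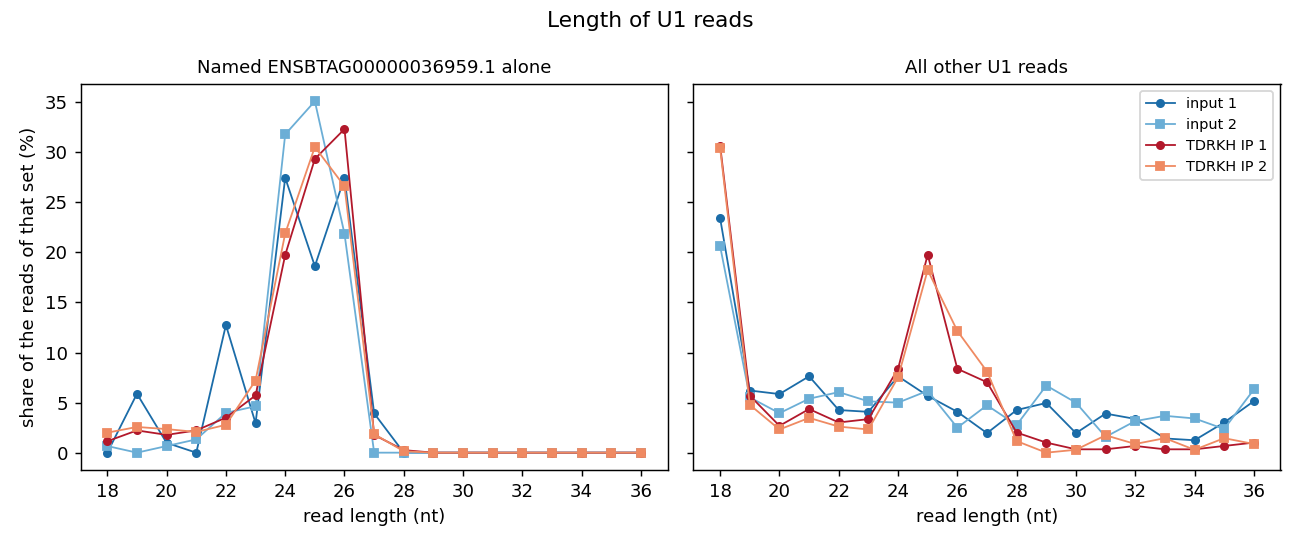
Share of reads by length (18 to 36 nt) in the 4 libraries, for reads named for ENSBTAG00000036959.1 alone (left) and all other U1 reads (right). On the left all libraries peak between 24 and 26 nt, and on the right the inputs spread over all lengths above a peak at 18 nt while the IPs add a rise at 25 nt (19.8% and 18.2%, against 5.68% and 6.18% in the inputs).

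The mean length of all U1 reads hid this, at 24.2 and 24.97 nt in the inputs and 24.3 and 24.1 nt in the IPs (difference -0.40 nt, two-sided exact permutation test p = 0.667, n = 2 in each group, smallest possible p = 0.333). Its sign changed with reads of 18 to 32 nt only (0.83 nt) and with sequences of more than 1 read only (0.00836 nt).

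First bases changed with the makeup of the reads. Of all U1 reads 39.2% (Wilson 95% interval 35.6% to 42.9%, from reads rounded to whole numbers and for counting error only, as reads include PCR copies) and 42.8% began with T in the inputs, and 83.1% (81.3% to 84.7%) and 77.2% in the IPs. The group means were 41.0% ± 2.53 and 80.1% ± 4.18 (SD, n = 2; exact permutation test p = 0.333, the smallest it can give). Over all listed reads the share was 82.5% ± 0.161 and 87.8% ± 0.583, so U1 reads were far below the library in the input and near it in the IP. U1 reads that begin with T changed by a log2 of 2.53 ± 0.18 more than those that begin with another base (adjusted p = 0.000569, edgeR's quasi-likelihood test of the interaction over 5190 features, of which 2.04% were called in this direction and 0.0578% in the other; the median over all of them was 0.70). Without input 1 or input 2 this difference was 2.44 and 2.65 and did not pass (adjusted p = 0.280 and 0.247).

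Within each kind of read the first base moved much less. Reads of ENSBTAG00000036959.1 alone began with T in 81.4% and 88.1% in the inputs and 90.03% and 88.0% in the IPs, next to 88.1% ± 0.574 and 88.2% ± 0.567 for piRNA cluster reads. The other U1 reads began with T in 31.6% and 33.8% in the inputs and 46.4% and 33.1% in the IPs. There TDRKH IP 1 stood above both inputs and TDRKH IP 2 lay between them.

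Other spliceosomal RNAs gave the setting for these values. U2, which pairs with the branch site, was at 554 and 593 RPM in the inputs and 209 and 231 RPM in the IPs (log2 change -1.39 ± 0.07). U4, which holds U6 inactive until the spliceosome is activated, changed by -1.35 ± 0.18, and U6, which forms part of the catalytic centre, by -0.52 ± 0.07. U5, which holds the exon ends, rose from 121 and 124 RPM to 170 and 185 RPM (0.53 ± 0.09). All 4 passed, with adjusted p from 2.39e-06 to 0.000874 (edgeR's quasi-likelihood test on features merged by Rfam family).

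Of the minor spliceosome, U12 fell furthest, from 307 and 275 RPM to 3.32 and 2.35 RPM (-6.66 ± 0.14, adjusted p = 1.02e-08). U4atac fell by 4.68 on the log2 scale (adjusted p = 0.000127), and U6atac was at 9.26 and 20.6 RPM in the inputs and 14.5 and 13.9 RPM in the IPs (adjusted p = 0.728). U11 had too few reads to be tested, as had U7, which is not spliceosomal and acts in histone mRNA processing. Of the 7 spliceosomal RNAs tested beside U1, 5 thus fell, 1 rose and 1 did not pass. Of all 5252 features tested in this way 58.0% were lower and 16.7% higher, so these counts lie near the shares over all features. The median over all features was -2.41, and U1 as a whole (-1.99), U2, U4 and U6 fell less than that. U1 reads without those of ENSBTAG00000036959.1 alone, with a log2 ratio of means of -4.22, lay between U4atac and U2. The regulatory RNA 7SK, which is nuclear but not spliceosomal, rose by 0.57 ± 0.08 (adjusted p = 0.000407). These directions hold for listed reads as library size. With DESeq2's size factors U2, U4 and U6 rose instead (log2 changes of 0.71, 0.76 and 1.58), and U6atac also rose (2.01). With TMM factors U6 and U6atac rose (0.81 and 1.20) and U2 and U4 did not pass. With total microRNA reads U12 alone fell (-1.91), U4atac did not pass (-0.01) and the others rose. U12 fell and U5 and 7SK rose under every scaling run. Whether U1 differed from any of these was not tested.

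**Figure D4:**
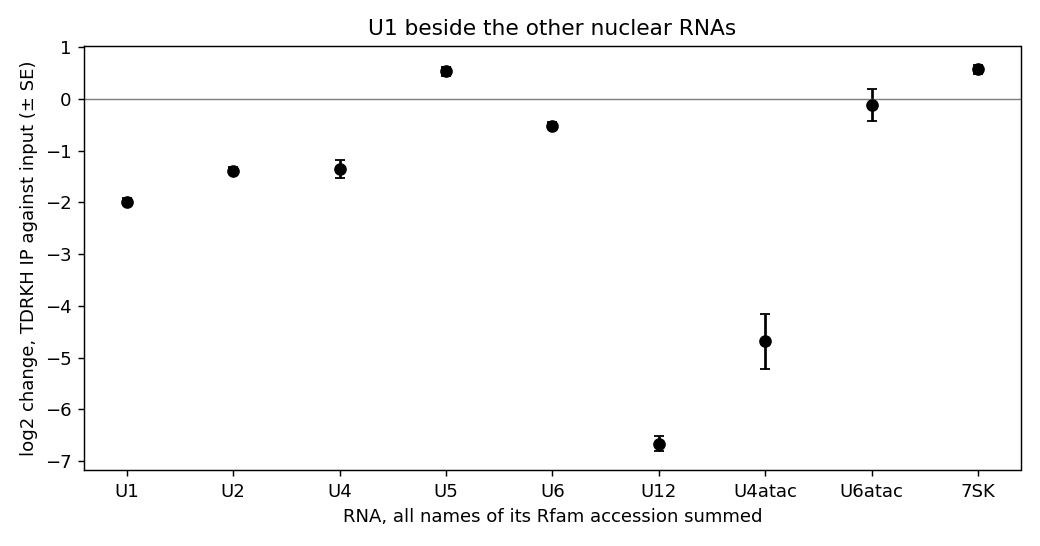
Log2 change (TDRKH IP against input, ± SE, 2 libraries in each group) of U1, of the other spliceosomal RNAs with enough reads and of 7SK, each summed over all names of its Rfam family with listed reads as library size. These are values for that library size only, and DESeq2's size factors or total microRNA reads turn the sign of U1, U2, U4, U6 and U6atac. U1 at -1.99 lies below U2 and U4, while U12 and U4atac are lower still and U5 and 7SK are above 0. The U1 point includes the reads of ENSBTAG00000036959.1 alone, 84.1% and 80.2% of U1 reads in the IPs.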

How the data were processed

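Small RNA of 4 libraries was measured, 2 of input and 2 of TDRKH IP, with TRIZOL extraction and a NEXTflex small RNA kit per the labels. The deposited files hold read counts per distinct sequence with the names the authors gave them with unitas, per the file names; for settings and genome build the sources used here give nothing. Members and lists were chosen with earlier results of these data known.

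Sequences were divided equally among their names and sums rounded. Names were filtered with edgeR's filterByExpr, and sequences with at least 10 RPM in 2 libraries. The groups were compared in edgeR 4.0.16 (R 4.3.3) with its quasi-likelihood test and listed reads as library size, and p-values were adjusted by Benjamini-Hochberg over all features, with a threshold of 0.05. The interaction was fitted with the library as a block on features split by first base. Standard errors (SE) were taken as the log2 change over the square root of F. Shares were compared by exact permutation tests (scipy 1.17.1). U1 was assembled from sequences of at least 10 names by overlaps of 14 bases, and reads were aligned to it with at most 2 edits (edlib 1.3.9.post1). Alternatives were TMM factors, DESeq2 1.42.0, other library sizes, filters and read sets, the replicate block and leaving out libraries; leaving out the reads of ENSBTAG00000036959.1 alone, and the other spliceosomal RNAs under each scaling, were added after the values were seen. Named were the 6 U1 names with the highest mean (those of the identical set by examples), U1 names past the threshold upward, the 6 leading U1 sequences of each group and up to 3 tested sequences past the threshold in each direction; others named were chosen after their values were seen. Chi-square over its degrees of freedom was 2.15 for the pair of inputs and 2.79 for the pair of IPs, above that of counting error alone.

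The fits were tested on simulated data in which 200 items were changed, up or down at random, with a fixed dispersion. Of the 5414 names of the real data 58.3% were lower and 16.5% higher. The recoveries and false calls may therefore not carry over to the real data. The fit over 5414 names found 7 of 82 at 1.5-fold, 30 of 60 at 2-fold and 53 of 58 at 4-fold, and made 7 false calls. That over 11786 sequences recovered 0 of 70, 20 of 66 and 57 of 64, and made 1 false call. The interaction recovered 149 of 200 at 4-fold over 4782 features, with 2 false calls.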

Additional observations from a re-analysis of the deposited data

How the results depend on the processing

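With piRNA cluster reads as library size 0 U1 names were higher, as with no filter on low counts, and with total microRNA reads 0 were lower and 2 higher. The share of all names called was counted in the main setting alone. With a library left out the number higher ran from 0 to 1. The change of all U1 turned to 0.11 with DESeq2's size factors and to 2.78 with total microRNA reads, and was -4.23 without the reads of ENSBTAG00000036959.1 alone. When library size was the sum of microRNA reads, the sequence tested at 10 RPM turned from 1 lower and 0 higher to 0 lower and 1 higher. With listed reads as library size filterByExpr gave 10 lower and 1 higher. The difference in first-T share, 39.1 percentage points, was 21.6 with each distinct sequence counted once, 43.4 with sequences of more than 1 read and 7.10 without the reads of that copy alone (exact permutation test p = 0.667, n = 2). The difference in mean length was -1.35 nt with each distinct sequence counted once, -1.80 nt without the reads of the copy, 0.00836 nt with sequences of more than 1 read and 0.83 nt with reads of 18 to 32 nt. The interaction of first T with IP ran from 2.27 to 2.81 with a library left out, passing without either IP and not without either input. For these changes the cause was not tested. The labels do not pair the replicates, and the correlation of same-numbered deviations was 0.0199. With the replicate number as a block 27 U1 names were lower and 1 higher and all U1 changed by -1.99. No U1 name has a bracketed note, so leaving out noted sequences changed no value. Depth limits what the inputs show of the copy, with 102 and 151 reads.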
